A study of Mus musculus with 12 samples.

Results

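The replication-dependent histone genes were followed across 12 one-colour Illumina mouse arrays, 1 per tissue sample. A probe was a member if its annotated symbol, or the current symbol of the same gene, was that of a clustered histone gene (H1f1 to H1f5, or H2ac, H2bc, H3c or H4c followed by a number). That rule gave 84 probes of 55 genes, out of 45281 probes on the array and 19057 genes named by a single symbol. Of these, 69 probes (46 genes) map to the large cluster on chromosome 13 and 15 probes (9 genes) to the cluster on chromosome 3. A further 5 genes (6 probes) that carry older cluster-style symbols but now have names of another form (H2aw, H2bu1-ps, H2bu2, H1f6 and H4f16) were outside the rule.

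The arrays held 4 osteosarcomas, 4 leiomyosarcomas, 2 normal bone marrows and 2 normal muscles, all labelled with the genotype "p53 flow/flox" and no treatment, so the normal tissues carry the same label as the tumours. The mice were transgenic animals followed until a tumour was visible or a limb was paralysed; the labels name no recombinase or promoter and give no age. One muscle and one bone marrow sample share an animal code, and nothing else states that each sample came from its own animal, so p-values measure the spread between these samples. No probe of the targeted gene is named in the annotation, so its loss was not checked here. The samples are bulk tissue, in which fewer cells of a type and less RNA per cell cannot be told apart.

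Replication-dependent histone genes supply the histones that wrap newly made DNA: H2A, H2B, H3 and H4 form the nucleosome core and H1 binds the linker. They lie in clusters, often as H2A and H2B genes facing each other across a short shared promoter, and are expressed mainly in S phase. Their messages end in a stem-loop bound by Slbp rather than in a poly(A) tail, although some of these genes also give polyadenylated messages, as is known from differentiated human cells. The labelling kit used here primes from oligo(dT), so a signal reflects whatever part of each histone RNA that primer reached, and that part was not tested. Many copies are near-identical, and the probe sequences are not in the files used here, so which copy a probe reads is uncertain and probes of one family are not independent measurements.

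Detected probes numbered 14169 to 18100 per array. The arrays fell into 6 of low background, with constants of 80.8 to 84.2 (leiomyosarcomas 1 and 2 and all normal samples), and 6 of high background, at 99.3 to 110.1 (leiomyosarcomas 3 and 4 and all osteosarcomas). The osteoblast marker list averaged a log2 level of 12.34 to 13.67 in osteosarcomas, against 5.18 to 6.47 elsewhere. The smooth muscle list of 5 markers averaged 6.93 to 7.35 in leiomyosarcomas and 6.69 to 8.62 in osteosarcomas. It averaged 6.38 and 6.14 in bone marrow and 9.15 and 8.82 in normal muscle. Against normal muscle, 2 of the 5 were called lower in leiomyosarcomas and 0 higher. The list did not set leiomyosarcomas apart from osteosarcomas, so it neither bears out nor refutes their label. Skeletal muscle fibre markers averaged 11.31 in osteosarcoma 1, against 4.81 to 8.10 in the other tumours.

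Histone signal was present in all tissues and highest in bone marrow. Of the 84 probes, 72 (52 genes) were detected on at least 2 arrays and were tested, 10 were detected on no array and 2 on a single array, and 46 were detected on all 12. Detection on both bone marrow arrays was enough to pass. Members seen only there thus entered the tests through the group where they were high. Such members include H1f1, H2bc8, H3c7 probe 4, H3c8 probe 2 and H4c2 probe 1. Counts that set bone marrow against other tissues include such members. The tested probes comprised 5 for H1, 21 for H2A, 16 for H2B, 13 for H3 and 17 for H4. Between 56 and 61 of the 84 probes were detected in each osteosarcoma, 57 to 63 in each leiomyosarcoma, 71 and 72 in bone marrow, and 53 and 49 in muscle. The median log2 level of the tested members was 7.20, 7.08, 8.69 and 7.66 in osteosarcomas, 7.32, 6.70, 7.31 and 7.17 in leiomyosarcomas, 10.10 and 10.01 in bone marrow, and 7.85 and 7.10 in muscle. The same median over all tested probes of the array was between 6.43 and 6.45 on every array, since the arrays were quantile-normalised. Bone marrow had the highest group mean for 67 of the 72 probes and muscle for the other 5, namely both H1f2 probes, H2bc4 probe 1, H2bc21 probe 1 and H2ac18 probe 2. Muscle had the lowest mean for 37 probes, leiomyosarcoma for 29 and osteosarcoma for 6. This order was not counted over all tested probes of the array. For members seen only in bone marrow, its highest mean followed from the filter. Their lowest group was picked among values below background.

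**Figure D1:**
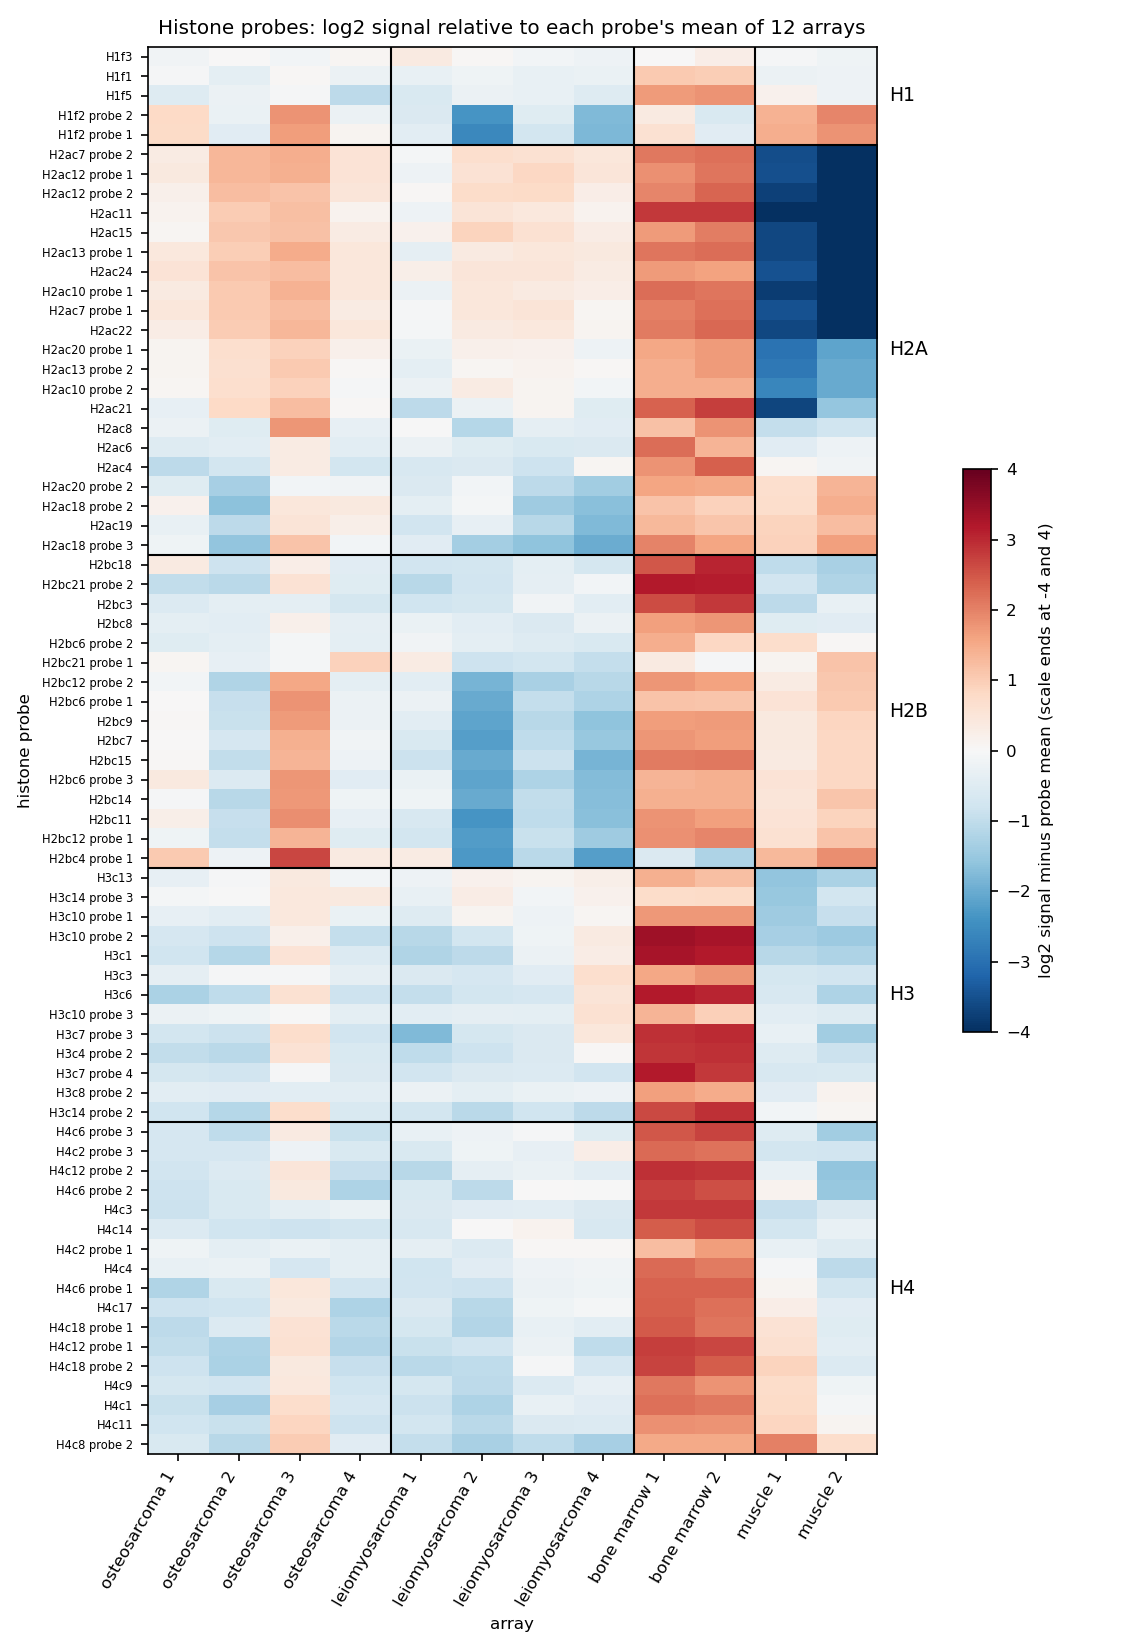
Log2 signal of the 72 tested histone probes (rows, by family) on the 12 arrays (columns, tumours left of normal tissues), each minus the probe's mean over the 12 arrays; the colour scale ends at -4 and 4. Bone marrow is high in nearly every row, a block of H2A rows is low in both muscles, and most H2B rows are low in leiomyosarcomas.

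Calls ran in different directions by family in the comparison of leiomyosarcoma with muscle, though the difference between families was not tested. A probe was called at a Benjamini-Hochberg adjusted limma p under 0.05 and a difference of at least 1 on the log2 scale. Of 21 H2A probes 14 were higher in the tumours, 4 lower and 3 not called, and of 16 H2B probes 11 were lower, 0 higher and 5 not called. Called in the other families were 3 higher of 13 H3 probes (23.1%), 2 lower of 17 H4 probes (11.8%) and 2 lower of 5 H1 probes (40%). In all, 17 members were higher and 19 lower, which is 23.6% and 26.4% of the 72, beside 17.7% of all probes called higher and 14.2% called lower. The median log2 difference of the members was 0.12, and that of all tested probes 0.08.

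H2ac11 (older symbol Hist1h2ag), an H2A gene of the chromosome 13 cluster, gave the clearest contrast. Its log2 signal was 9.41, 10.29, 10.47 and 9.43 in osteosarcomas, 9.06, 9.80, 9.70 and 9.43 in leiomyosarcomas, 12.10 and 12.09 in bone marrow, and 4.92 and 4.63 in muscle, where it was not above background on either array. The tumours lay below bone marrow and above muscle, with no overlap. Leiomyosarcoma exceeded muscle by at least 14.8-fold (log2 difference 4.72 ± 0.33 SE, adjusted p = 1.08e-06), where the bound uses the lowest signal that counted as detected on each muscle array. The bound was at least 19.6-fold for osteosarcoma over muscle (5.12 ± 0.33, adjusted p = 8.01e-07).

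H2ac7 probe 2 (Hist1h2ad) had the largest fitted difference, with 11.64, 12.63, 12.75 and 11.86 in osteosarcomas, 11.25, 11.996, 11.93 and 11.76 in leiomyosarcomas, 13.41 and 13.52 in bone marrow, and 7.77 and 5.23 in muscle. The muscles stood apart from each other, but both were far below every other sample, and in muscle 2 the probe was not above background. Leiomyosarcoma was higher than muscle by 5.23 ± 0.56 in the fit (adjusted p = 2.05e-05), by at least 69.1-fold against muscle 2 alone and by 3.96 log2 units against muscle 1 alone. H2ac12 probe 1 (Hist1h2ah), also not above background in muscle 2, was higher by 5.09 in the fit, by at least 68.4-fold against muscle 2 and by 3.92 against muscle 1. H2ac12 probe 2, detected in both muscles, was higher by 5.05 (5.92 and 4.19 without muscle 1 and muscle 2). H2ac15 (Hist1h2ak) was higher by 4.69, H2ac13 probe 1 by 4.51, H2ac24 by 4.51, H2ac10 probe 1 by 4.45, H2ac7 probe 1 by 4.42 and H2ac22 by 4.35, each called. Without muscle 1 or muscle 2 these values moved by over 1.5 times for H2ac13 probe 1 (5.15 and 3.86), H2ac24 (5.15 and 3.87) and H2ac7 probe 1 (5.10 and 3.74), with the call kept.

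The probes of the highest mean over the 12 arrays were all H2A. H2ac24 (Hist1h2ap) was the brightest, with 14.68, 15.27, 15.36 and 14.59 in osteosarcomas, 14.36, 14.60, 14.60 and 14.46 in leiomyosarcomas, 15.82 and 15.72 in bone marrow, and 10.64 and 9.36 in muscle. It was well above background in muscle too, yet there lay more than 3 log2 units below the lowest tumour. H2ac13 probe 2 (2.40), H2ac10 probe 2 (2.33) and H2ac20 probe 1 (2.51), also among these brightest probes, differed less between leiomyosarcoma and muscle than most H2A probes of chromosome 13, and all 3 were called higher.

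H2A calls differed in direction between the 2 clusters, though the difference between clusters was not tested. On chromosome 13, 12 of 15 H2A probes were called higher in leiomyosarcoma than in muscle and none lower, with a median log2 difference of 4.45. On chromosome 3, 2 of 6 were higher and 4 lower, with a median of -1.88. H2ac20 (Hist2h2ac) held a probe of each kind. Its probe 1 gave 13.89, 14.44, 14.68 and 13.97 in osteosarcomas, 13.49, 13.98, 13.95 and 13.56 in leiomyosarcomas, 15.30 and 15.48 in bone marrow, and 10.82 and 11.66 in muscle. Its probe 2 gave 7.5, 6.65, 7.87 and 7.84 in osteosarcomas, 7.41, 7.85, 6.94 and 6.60 in leiomyosarcomas, 9.54 and 9.5 in bone marrow, and 8.66 and 9.34 in muscle. Every leiomyosarcoma lay above both muscles by probe 1 (2.51 ± 0.29, adjusted p = 4.03e-05) and below both by probe 2 (-1.80 ± 0.40, adjusted p = 0.00318), so the direction of this gene is not settled. The other lower members there were H2ac18 probe 3 (-2.65), H2ac19 (-2.06) and H2ac18 probe 2 (-1.97). H2ac21 was higher by 2.21, but by only 1.15 and no longer called when muscle 1 was left out (adjusted p = 0.132). In muscle 1 it was not above background, and against that array alone leiomyosarcoma was at least 8.43-fold higher. Among the 17 genes with more than 1 tested probe, 7 had probes that differed by over 1 log2 unit in this comparison, and H2ac20 was the only one with opposite calls.

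H2bc11 (Hist1h2bj), an H2B gene, fell in leiomyosarcomas. Its log2 signal was 9.95, 8.80, 11.56 and 9.39 in osteosarcomas, 9.08, 7.34, 8.70 and 8.04 in leiomyosarcomas, 11.50 and 11.35 in bone marrow, and 10.24 and 10.60 in muscle. All leiomyosarcomas lay below both muscles (-2.13 ± 0.64, adjusted p = 0.0183), while osteosarcoma 3 alone among the tumours reached the bone marrow level. H2bc4 probe 1 (Hist1h2bc) gave the largest H2B fall (-2.89 ± 0.79, adjusted p = 0.0115), followed by H2bc12 probe 1 (-2.19), H2bc14 (-2.03), H2bc6 probe 3 (-2.01), H2bc15 (-2.0), H2bc7 (-1.95), H2bc9 (-1.93), H2bc6 probe 1 (-1.91), H2bc12 probe 2 (-1.87) and H2bc21 probe 1 (-1.16), the last with overlapping groups. H2bc21 probe 2 lay on the other side of 0 (0.41) and was not called. The H2B count was not stable. In place of 11, 5 lower calls were made without muscle 1, 1 without muscle 2 and 7 without leiomyosarcoma 2, 4 with the background level as a block and 4 with no detection filter, while 13 or 14 H2A probes were called higher in each of these fits. H2bc4 probe 1 lost its call without muscle 2 (-2.60) and with that block (-2.57), and H2bc12 probe 1 without muscle 2 (-1.91).

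Other cell types differed between these groups too. Skeletal muscle fibre markers averaged 4.81 to 6.26 in leiomyosarcomas and 14.96 and 14.77 in muscle, with all 6 called lower in the tumours, and 4 of 4 macrophage markers were called higher there. Their part in the histone differences was not tested.

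H1f2 (Hist1h1c), a linker histone gene whose human counterpart is among those known to give polyadenylated messages, was highest in muscle. Probe 1 gave 12.27, 11.07, 13.19 and 11.62 in osteosarcomas, 11.10, 8.95, 10.80 and 9.72 in leiomyosarcomas, 12.11 and 11.08 in bone marrow, and 12.98 and 13.30 in muscle. Leiomyosarcomas were below both muscles without overlap, by 3.00 log2 units in probe 1 (difference -3.00 ± 0.64, adjusted p = 0.00253) and 2.98 in probe 2 (-2.98 ± 0.64, adjusted p = 0.00264). The other H1 members, H1f1, H1f3 and H1f5, were not called in this comparison. Among H4 genes, H4c8 probe 2 was lower by -2.52 (-1.86 and -3.17 without muscle 1 and muscle 2) and H4c11 by -1.23. Among H3 genes, H3c13 was higher by 1.51, H3c14 probe 3 by 1.15 and H3c10 probe 1 by 1.04; the calls of H3c14 probe 3 and H3c10 probe 1 ended without muscle 1 (0.76 and 0.78), and that of H3c10 probe 1 also under 7 other settings, with values of 0.90 to 0.98.

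**Figure D2:**
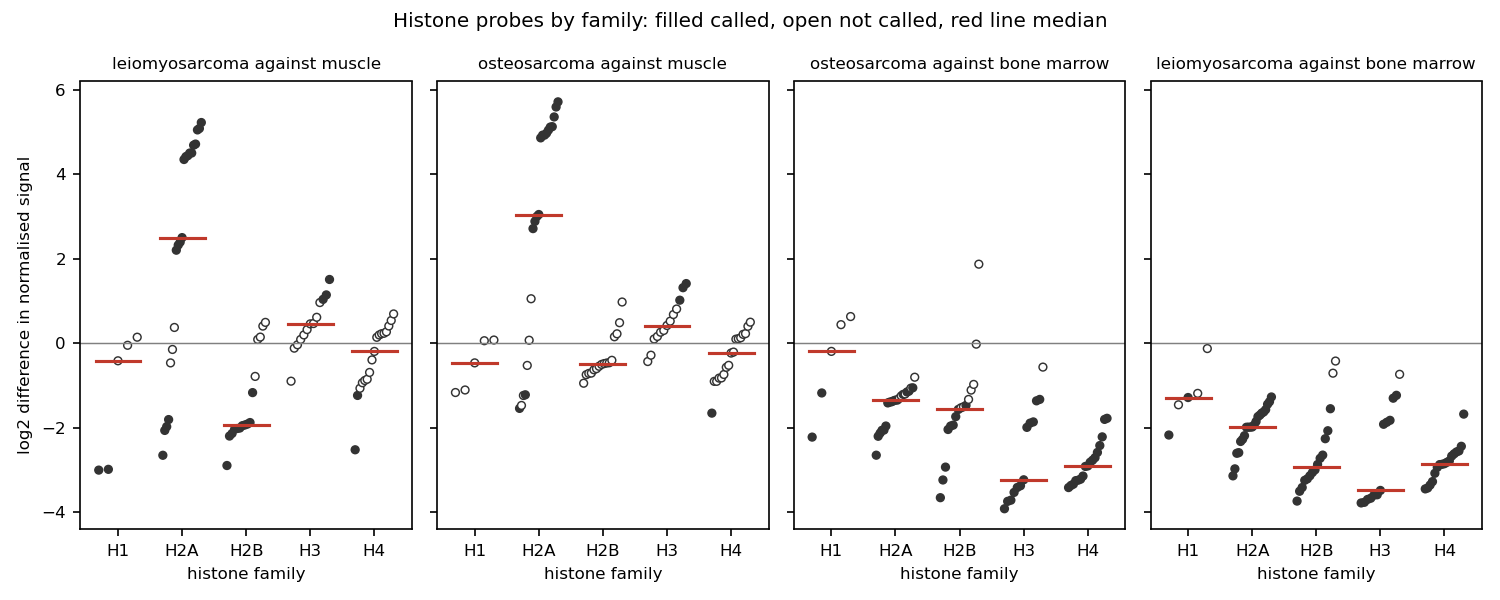
Log2 difference in signal of each tested histone probe (points; filled where called) by family, in 4 comparisons of a tumour with a normal tissue; red lines are family medians. H2A medians are 2.51 and 3.05 for leiomyosarcoma and osteosarcoma against muscle, and all family medians are below 0 against bone marrow.

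Facing pairs were searched only among starts at most 250 bases apart, so wider pairs were not looked for. There were 5 pairs of facing H2A and H2B genes on chromosome 13 with both genes tested and starts 163 to 248 bases apart. In 4 of the 5 pairs the H2A gene was called higher and the H2B gene lower in leiomyosarcoma than in muscle. The sequences between the starts of 4 of them are shown, since the same bases stand before both genes. They are from RefSeq (GRCm38.p6), 5′ to 3′ on the strand of the H2A gene, which starts just after the last base, while the H2B gene runs the other way from the first. Capitals mark CCAAT or its reverse ATTGG, the usual letters of a CCAAT box, then TATAAA or its reverse TTTATA, those of a TATA box, and last ATTTGCAT or its reverse ATGCAAAT, the octamer known from H2B promoters.
H2ac15 and H2bc15, chr13:21753913-21754075, minus strand: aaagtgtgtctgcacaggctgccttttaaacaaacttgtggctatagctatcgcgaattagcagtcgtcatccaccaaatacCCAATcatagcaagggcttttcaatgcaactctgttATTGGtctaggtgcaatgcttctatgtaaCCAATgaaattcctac
H2ac12 and H2bc12, chr13:22035644-22035820, minus strand: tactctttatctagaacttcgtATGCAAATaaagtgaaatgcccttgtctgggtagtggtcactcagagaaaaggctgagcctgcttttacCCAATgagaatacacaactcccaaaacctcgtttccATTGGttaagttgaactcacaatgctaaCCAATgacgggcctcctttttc
H2ac7 and H2bc7, chr13:23574208-23574380, plus strand: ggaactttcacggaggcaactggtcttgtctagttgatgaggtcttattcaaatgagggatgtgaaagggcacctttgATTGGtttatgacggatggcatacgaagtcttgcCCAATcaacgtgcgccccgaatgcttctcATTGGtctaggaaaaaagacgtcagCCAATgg
H2ac8 and H2bc8, chr13:23571221-23571399, minus strand: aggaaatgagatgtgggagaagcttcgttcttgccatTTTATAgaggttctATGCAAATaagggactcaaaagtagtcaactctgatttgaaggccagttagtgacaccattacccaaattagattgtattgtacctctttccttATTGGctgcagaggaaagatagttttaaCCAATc

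The first pair had 3 CCAAT matches, the H2ac12 pair 3 CCAAT and 1 ATTTGCAT, the H2ac7 pair 4 CCAAT, and the H2ac8 pair 2 CCAAT, 1 TATAAA and 1 ATTTGCAT. H2ac15 gave 12.28, 13.28, 13.35 and 12.53 in osteosarcomas, 12.36, 13.09, 12.80 and 12.49 in leiomyosarcomas, 13.88 and 14.24 in bone marrow, and 8.55 and 7.44 in muscle. H2bc15 on the other side gave 8.36, 7.35, 9.69 and 8.12 in osteosarcomas, 7.47, 6.30, 7.46 and 6.45 in leiomyosarcomas, 10.41 and 10.43 in bone marrow, and 8.69 and 9.15 in muscle. Leiomyosarcomas were thus above both muscles for H2ac15 (4.69 ± 0.38, adjusted p = 2.94e-06) and below both for H2bc15 (-2.0 ± 0.54, adjusted p = 0.0101).

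The same signs held for H2ac12 (5.09 and 5.05 by its 2 probes) with H2bc12 (-2.19 and -1.87), for H2ac11 (4.72) with H2bc11 (-2.13), and for H2ac7 (4.42 and 5.23) with H2bc7 (-1.95). These H2B calls depended on muscle 2: of the 5 H2B probes of the 4 pairs, 0 were called without it, although all 5 differences stayed below 0 there. Without muscle 1 or with no detection filter 3 were called, and with the background level as a block 4, while all 6 H2A probes were called higher in each of these fits. H2ac8 and H2bc8 were above background in neither muscle, and H2bc8 was above it in no tumour, so no direction was measured for the pair. In osteosarcoma against muscle the H2A side of the 4 pairs was again called higher, while no H2B partner was called. H2bc12 probe 1 differed there by -0.94 (adjusted p = 0.202) and H2bc15 by -0.54 (adjusted p = 0.451). In osteosarcoma and leiomyosarcoma against bone marrow, H2ac15 (-1.20 and -1.38) and H2bc15 (-2.04 and -3.50) were both called lower.

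**Figure D3:**
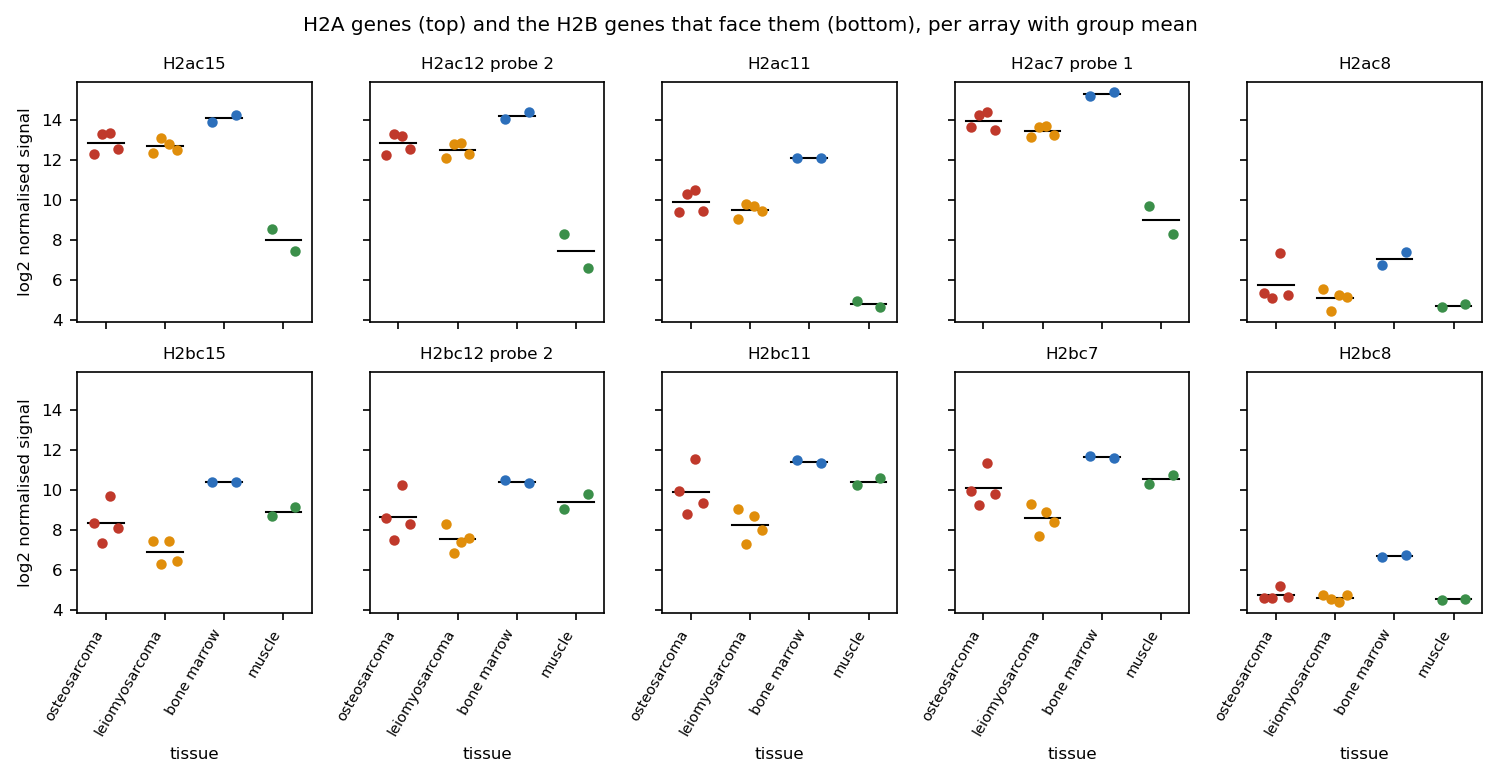
Log2 normalised signal per array (points) with group means (lines) for 5 H2A genes (top) and the H2B genes that face them (bottom), in osteosarcoma, leiomyosarcoma, bone marrow and muscle. In the first 4 pairs muscle is lowest for H2A but lies above leiomyosarcoma for H2B, and H2ac8 and H2bc8 were above background in neither muscle.

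The letters were common in histone promoters. In the 250 bases before the start (51 windows of 50 of the 55 genes had an entry), CCAAT was in 82.4% of windows, against 33.8% of 32817 promoters of all genes, and was in 16 of 16 H2A and 12 of 12 H2B windows but 3 of 11 H4 windows. TATAAA was in 49.0% against 12.4%. ATTTGCAT was in 25.5% against 1.60%, in 7 of 12 H2B and 6 of 16 H2A windows, and in none of the H1, H3 or H4 windows. Facing genes share these bases, so their windows are not independent.

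In osteosarcoma against muscle, most called members were again H2A. H2A probes were higher in 14 and lower in 2 of 21, H3 in 3 and 0 of 13, H4 in 0 and 1 of 17, and no H1 or H2B probe was called (limma; unadjusted p was under 0.05 for 0 of 5 and 2 of 16). Overall 17 members were higher and 3 lower, or 23.6% and 4.17%, beside 16.6% of all probes higher and 13.7% lower. The largest rises were H2ac7 probe 2 (5.72 ± 0.56, adjusted p = 1.21e-05), H2ac12 probe 1 (5.60) and probe 2 (5.36), H2ac13 probe 1 (5.13), H2ac11 (5.12) and H2ac10 probe 1 (5.05). Against muscle 2 alone, where neither was above background, H2ac7 probe 2 was at least 97.1-fold and H2ac12 probe 1 at least 97.2-fold higher, and against muscle 1 alone they were higher by 4.45 and 4.43 log2 units. Without muscle 1 and muscle 2, H2ac12 probe 2 moved to 6.23 and 4.50 and H2ac13 probe 1 to 5.77 and 4.49, all still called. Skeletal muscle fibre markers averaged 5.15 to 11.31 in osteosarcomas and 14.96 and 14.77 in muscle, with 5 of 6 called lower in the tumours. Macrophage markers averaged 9.26 to 10.15 in osteosarcomas and 8.05 and 6.43 in muscle (4 of 4 higher), and osteoblast markers 12.34 to 13.67 in osteosarcomas and 6.47 and 5.66 in muscle (5 of 5 higher). Their part in the histone differences was not tested. These values share the muscle samples with those of leiomyosarcoma, so the 2 tumours are not independent evidence.

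The lower members were H4c8 probe 2 (-1.65), H2ac20 probe 2 (-1.54) and H2ac19 (-1.21), and none of these calls held with the background level as a block (-1.60, -0.68 and -0.34). H2ac20 again had opposite calls, with probe 1 at 3.01. With arrays scaled to a common median in place of quantile normalisation, 16 members were higher and 8 lower; that scaling moved the median difference of all probes to -0.34 from 0.06, and the members' median was -0.50 against 0.10. The call of H4c8 probe 2 ended without muscle 1 (-0.99), that of H2ac20 probe 2 without muscle 2 (-1.19) and that of H2ac19 without either muscle (-1.38 and -1.05), osteosarcoma 1 (-1.16) or osteosarcoma 2 (-0.92).

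Osteosarcoma against bone marrow showed lower histone signal nearly throughout. No member was called higher and 56 were lower, or 77.8% of the 72, beside 12.7% of all probes higher and 12.7% lower; 62 had an unadjusted p under 0.05. All 17 H4 probes were lower, 12 of 13 for H3, 16 of 21 for H2A, 9 of 16 for H2B and 2 of 5 for H1. The lower members include H1f1, H2bc8, H3c7 probe 4, H3c8 probe 2 and H4c2 probe 1, which passed the detection filter through bone marrow alone. The H2A count was 7 without bone marrow 1, 5 without bone marrow 2 and 3 with the background level as a block, and the H2B count was 5, 5 and 4 in the same fits and 14 without osteosarcoma 3. Median log2 differences were -2.90 for H4 and -3.23 for H3, against -1.34 for H2A, -1.54 for H2B and -0.19 for H1, and 0.02 for all probes. With the background level as a block, 37 were lower and none higher. All osteosarcomas were of high and both marrows of low background, so no value within a level exists for this comparison.

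H3c1 (Hist1h3a) gave 6.08, 5.76, 7.45 and 6.35 in osteosarcomas, 5.70, 5.83, 6.66 and 7.18 in leiomyosarcomas, 10.18 and 10.06 in bone marrow, and 5.78 and 5.67 in muscle. Both marrows lay far above all other samples (osteosarcoma difference -3.71 ± 0.47, adjusted p = 7.16e-05). H3c10 probe 2 (-3.91), H3c6 (-3.74) and H2bc21 probe 2 (-3.65) were lower by similar amounts. Other probes of the same genes differed less. The smallest H3c10 difference was -1.36, still called, and H2bc21 probe 1 was at -0.02 and not called. H3c7 probe 4, at 4.59, 4.51, 5.22 and 4.69 in osteosarcomas and 8.44 and 8.12 in bone marrow, was not above background in any osteosarcoma and was at least 8.27-fold lower there (adjusted p = 2.27e-07). H4c12 probe 1 was lower by -3.41 and H4c3 (Hist1h4c) by -3.36; H4c3 gave 5.22, 5.48, 5.71 and 5.82 in osteosarcomas and 8.92 and 8.92 in bone marrow.

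The bright H2A probes had smaller differences, but their bone marrow levels (H2ac24 at 15.82 and 15.72) lay close to the highest value on every normalised array, 15.89. Whether that limit of the scale affected the differences was not tested. H2ac24 differed by -0.80 (adjusted p = 0.0814), H2ac10 probe 2 by -1.05, H2ac13 probe 2 by -1.13, H2ac20 probe 1 by -1.15, H2ac7 probe 1 by -1.34 and H2ac13 probe 1 by -1.36. Each of the last 5 was called, but those calls ended with the background level as a block (-1.02, -1.38, -1.16, -1.43 and -1.77 for H2ac10 probe 2, H2ac13 probe 2, H2ac20 probe 1, H2ac7 probe 1 and H2ac13 probe 1). They also ended without bone marrow 2 (adjusted p between 0.0879 and 0.135) and, except for H2ac20 probe 1, without bone marrow 1 (adjusted p between 0.0638 and 0.0907). Leaving out osteosarcoma 1 or 4 took H2ac10 probe 2 below the fold threshold (-0.94 and -0.90), and leaving out osteosarcoma 4 did so for H2ac13 probe 2 (-0.99). H2bc4 probe 1 and both H1f2 probes were not lower, at 1.88 (adjusted p = 0.0877), 0.45 and 0.64. Neutrophil and precursor markers averaged 5.73 to 6.72 in osteosarcomas and 15.17 and 15.22 in bone marrow, with all 6 called lower in the tumours, and 3 of 3 B lymphoid markers were lower there as well. Their part in the histone differences was not tested.

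Leiomyosarcoma was below bone marrow in still more members, with 0 higher and 66 lower (91.7%), beside 13.1% of all probes higher and 12.3% lower; 68 had an unadjusted p under 0.05. All 21 H2A and all 17 H4 probes, 12 of 13 H3, 14 of 16 H2B and 2 of 5 H1 probes were lower, and the median difference was -2.56. Lower members again include H1f1, H2bc8, H3c7 probe 4, H3c8 probe 2 and H4c2 probe 1, which passed the detection filter through bone marrow alone. Neutrophil and precursor markers averaged 5.46 to 5.89 in leiomyosarcomas and 15.17 and 15.22 in bone marrow, with 6 of 6 called lower in the tumours. B lymphoid markers averaged 4.80 to 5.35 in leiomyosarcomas and 9.27 and 7.21 in bone marrow (3 of 3 lower), and macrophage markers 10.75 to 11.20 in leiomyosarcomas and 7.19 and 6.88 in bone marrow (4 of 4 higher). Their part in the histone differences was not tested. H3c1 (-3.77), H3c10 probe 2 (-3.76), H2bc21 probe 2 (-3.73), H3c14 probe 2 (-3.69) and H3c7 probe 3 (-3.59) fell most, with H3c7 probe 4 at least 8.37-fold lower. Other probes of these genes fell less. The smallest H3c10 difference was -1.30, still called, while H2bc21 probe 1 (-0.70) and H3c14 probe 3 (-0.73) were not called. H2ac24 was the least changed H2A probe (-1.27, adjusted p = 0.0109), and its call ended without bone marrow 1 (-1.21) or bone marrow 2 (-1.32).

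Between the normal tissues, bone marrow exceeded muscle in 51 members and was lower in 1 (70.8% and 1.39%), beside 19.8% of all probes higher and 17.8% lower. All 13 H3, 15 of 17 H4, 17 of 21 H2A, 4 of 16 H2B and 2 of 5 H1 probes were higher, so H2B again differed least among the core families in its share of calls, though that difference between families was not tested. The higher members include H1f1, H2bc8, H3c7 probe 4, H3c8 probe 2 and H4c2 probe 1, which passed the detection filter through bone marrow alone. H2ac11 was at least 89.6-fold higher in marrow (log2 difference 7.32, adjusted p = 5.96e-08). H2ac7 probe 2 (6.96), H2ac12 probe 2 (6.75) and probe 1 (6.66), H2ac13 probe 1 (6.49) and H2ac10 probe 1 (6.43) followed. Against muscle 2 alone, H2ac7 probe 2 was at least 229.6-fold and H2ac12 probe 1 at least 202.5-fold higher, and against muscle 1 alone they were higher by 5.69 and 5.49 log2 units. Without muscle 1 and muscle 2, H2ac12 probe 2 became 7.62 and 5.88 and H2ac13 probe 1 7.13 and 5.85. H2bc4 probe 1 was the exception, with 8.69 and 8.05 in bone marrow and 10.56 and 11.13 in muscle (-2.47 ± 0.92, adjusted p = 0.0463), and leaving out any of these 4 samples took the limma call away (adjusted p 0.0895 to 0.198).

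Few members were called between the tumours. In osteosarcoma against leiomyosarcoma, 4 members were higher and 0 lower of 72 (5.56%), beside 2.75% of all probes higher and 3.72% lower; 15 had an unadjusted p under 0.05, 10 of them H2B. H2bc4 probe 1 gave 10.33, 9.08, 11.94 and 9.64 in osteosarcomas and 9.60, 6.96, 8.20 and 7.06 in leiomyosarcomas. The groups overlapped, with leiomyosarcoma 1 above the lowest osteosarcoma (2.29 ± 0.65, adjusted p = 0.0452). H1f2 probe 1 (1.90, adjusted p = 0.0399) and probe 2 (1.82, adjusted p = 0.047) and H2bc7 (1.49, adjusted p = 0.0468) were the others. No member was called with the background level as a block, with no background correction, with no filter on dim probes or in a fit of these 8 arrays alone, and leaving out 1 tumour gave between 0 and 10 calls. All 16 H2B differences were above 0 (median 1.27, lowest 0.008), though only 2 were called. Medians were 0.50 for H2A, 0.06 for H3, -0.01 for H4 and 0.006 for all probes. H2bc8 and H2bc6 probe 2 were above background in no tumour, so no direction was measured for them. Probes of one family are not independent, and the share above 0 was not counted over all probes.

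A further contrast was osteosarcoma minus bone marrow less leiomyosarcoma minus muscle, named the difference between tumour effects below. Which normal tissue was set against which tumour was chosen here. This contrast was below 0 in 49 members and above 0 in 3 (both H1f2 probes and H2bc4 probe 1) by the limma call, or 68.1% and 4.17%, beside 20% of all probes below and 17.7% above. All 13 H3 probes, 14 of 17 H4, 16 of 21 H2A and 4 of 16 H2B probes were below. For H2ac11, osteosarcoma minus bone marrow was -2.20 and leiomyosarcoma minus muscle 4.72, and for H1f2 probe 1 they were 0.45 and -3.00. The normal tissue differs between the sides of this contrast, so bone marrow against muscle enters it: for H2ac11 the value of -6.92 is 0.40 between the tumours (adjusted p = 0.396) less 7.32 between bone marrow and muscle.

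**Figure D4:**
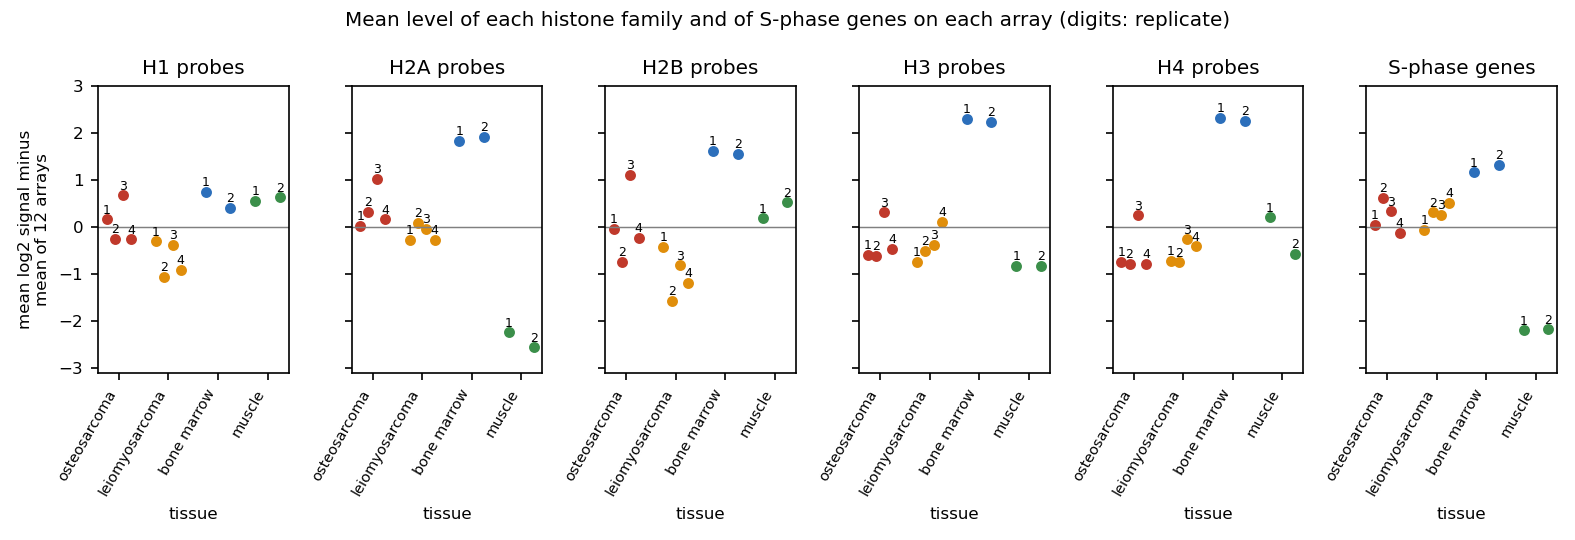
Mean log2 signal of each histone family and of 21 S-phase genes on each array, minus the mean of the 12 arrays; points are arrays, coloured by tissue, and digits give the replicate. Osteosarcoma 3 is the highest osteosarcoma in all 5 families but not for S-phase genes, and muscle is low for H2A and S-phase genes but not for H2B or H1.

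The tumours varied among themselves. Osteosarcoma 3 was the highest of the 4 osteosarcomas for 62 of 72 members, beside 24.6% of all tested probes, and for 14 of 16 H2B and 20 of 21 H2A probes. Osteosarcoma 2 was the lowest for 37 members and for 14 of 16 H2B probes, and osteosarcoma 1, the highest of the 4 for muscle fibre markers, for 12 of 21 H2A probes. Over all tested probes, osteosarcoma 2 was the lowest for 27.0% and osteosarcoma 1 for 24.0%. H2bc4 probe 1 was at 11.94 and H2bc11 at 11.56 in osteosarcoma 3, against 9.08 and 8.80 in osteosarcoma 2. The S-phase list averaged 8.28, 8.86, 8.57 and 8.11 in osteosarcomas 1 to 4, so osteosarcoma 2 was highest there. Without osteosarcoma 3, 28 members rather than 20 were called against muscle (16 higher and 12 lower) and 62 rather than 56 against bone marrow.

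The order of the leiomyosarcomas differed by family, though that difference was not tested and probes of one family are not independent. Leiomyosarcoma 1 was the highest of its group for 12 of 16 H2B probes and the lowest for 14 of 21 H2A probes, beside 24.6% and 26.3% of all tested probes. Leiomyosarcoma 2 was the lowest for 10 H2B probes and the highest for 10 H2A probes, beside 29.5% and 30.2% of all tested probes. Leiomyosarcoma 4 was the highest for 9 of 13 H3 probes. Leiomyosarcoma 2 and leiomyosarcoma 1 are both low-background arrays.

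Other genes of DNA replication and histone supply were set beside the members, each by its brightest probe. Of 21 measured S-phase genes (replication enzymes, the Mcm helicase and their regulators), 18 were higher and 0 lower in each tumour than in muscle, with medians of 2.37 in osteosarcoma and 2.46 in leiomyosarcoma. Against bone marrow, 10 of 21 were lower in osteosarcoma and 8 in leiomyosarcoma, and between the tumours none was called (limma; 1 had an unadjusted p under 0.05). Mcm5, a helicase subunit, had 10.22, 11.23, 10.72 and 10.18 in osteosarcomas, 10.78, 10.60, 11.13 and 10.87 in leiomyosarcomas, 12.53 and 12.64 in bone marrow, and 7.27 and 6.58 in muscle. It was above muscle in every tumour and below both marrows, by 3.67 and -2.0 in osteosarcoma and 3.92 and -1.75 in leiomyosarcoma. Lig1, the replicative DNA ligase, was above muscle by 3.47 in osteosarcoma and 3.67 in leiomyosarcoma.

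Histone variants outside the clusters were higher than in muscle in 5 of 9 for osteosarcoma and 4 of 9 for leiomyosarcoma, with none lower. Cenpa, the centromeric H3, was higher than muscle by 3.92 ± 0.34 (adjusted p = 6.06e-06) in osteosarcoma and by 4.25 ± 0.34 (adjusted p = 3.04e-06) in leiomyosarcoma. The variant H2A.Z gene H2afz was higher by 2.05 and 2.69 in osteosarcoma and leiomyosarcoma, and H3f3b, an H3.3 gene, by 1.62 and 1.61. Against bone marrow, 1 of 9 was higher and 3 lower in osteosarcoma, and 0 higher and 3 lower in leiomyosarcoma. H2afy, a macroH2A gene, was lower than in bone marrow by -1.98 in osteosarcoma and -1.59 in leiomyosarcoma. H2afx, whose protein marks DNA breaks, was lower by -1.22 and -2.50. It was the 1 of 9 variants that differed between the tumours, higher in osteosarcoma by 1.28 (adjusted p = 0.0249).

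Histone chaperones, which carry new histones to DNA, were higher than in muscle in 4 of 10 for each tumour. Chaf1a and Chaf1b, subunits of the assembly factor CAF-1, were higher by 2.55 and 3.45 in osteosarcoma and by 2.70 and 2.33 in leiomyosarcoma, and Hjurp, the Cenpa chaperone, by 3.51 in osteosarcoma and 2.98 in leiomyosarcoma. Chaf1b was the 1 chaperone called between the tumours (1.11 higher in osteosarcoma, adjusted p = 0.0187). Of 9 measured factors that transcribe or process histone messages, only Srrt was called against muscle (1.14 higher in osteosarcoma and 1.17 in leiomyosarcoma). Against bone marrow none was called in osteosarcoma, and 1 of 9 was lower in leiomyosarcoma. Slbp, Casp8ap2, Lsm11 and Eri1 were not detected on enough arrays to be tested.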

How the data were processed

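Total RNA was labelled as biotinylated cRNA and hybridised to 12 one-colour Illumina arrays, per the labels' protocols. The deposited table holds each probe's bead intensity per array on a linear scale, background-subtracted so that some values are negative, and a detection p-value per probe and array, per the file headers. No label or header names the software behind them. The intensities were background-corrected, quantile-normalised and put on the log2 scale with neqc (offset 16) in limma 3.58.1 under R 4.3.3; figures used Python 3.11.15 and matplotlib 3.10.9. Probes with a detection p under 0.05 on at least 2 arrays were kept (21383 of 45281).

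One linear model with 4 group means (8 residual degrees of freedom, prior 3.786) was fitted across all kept probes with lmFit and eBayes, and p-values were adjusted over all of them by Benjamini-Hochberg; every adjusted p in the text is from it, with standard errors from the same fit. The script was tested on simulated data. A probe was called at an adjusted p under 0.05 and at least 1 log2 unit. Of the array's probes, 34885 had 1 gene symbol, 18 several and 10378 were not listed, and 34807 were updated through a gene ID. Fold bounds use the lowest detected signal of each array.

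The histone members, the other gene lists and the tests were chosen with earlier results of these data known. Named were, per comparison, the 6 called members with the largest rise and the 6 with the largest fall, called members opposite to most, genes whose probes disagreed and the 6 probes of highest mean; other genes named are partners in a facing pair or family members of those, and from other lists up to 4 called genes with the largest difference, with further ones picked after their values were seen. Alternatives were other background correction, scaling, filters, blocks, sample sets, 1 probe per gene and leaving out each array; those for the difference between tumour effects were added after seeing the data. The number of arrays limits the precision.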

Additional observations from a re-analysis of the deposited data

Results flagged for a closer look

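Single tumours stood apart from the other 3 of their group in 4 named probes, by the gap to the nearest sample relative to the group's range; chance gives about 1 such case in 20 groups. Leiomyosarcoma 1 was low for H2ac13 probe 1 (11.92) and probe 2 (13.06), and osteosarcoma 3 was high for H3c7 probe 3 (8.0) and H4c12 probe 1 (8.07). Over all members, 9 of 72 were set apart in this way in osteosarcomas, 8 of them by osteosarcoma 3. In leiomyosarcomas 5 of 72 were, which is near the rate of 1 in 20. The share over all tested probes was not counted, and probes of one family are not independent. For H2bc8 every osteosarcoma was below background, and for H2ac6 every one but osteosarcoma 3 lay there.

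Some probes were called in the limma test of osteosarcoma minus bone marrow less leiomyosarcoma minus muscle. That contrast holds bone marrow against muscle as well as tumour against tumour. Between the tumours themselves no H2A, H3 or H4 probe was called (3, 0 and 0 had an unadjusted p under 0.05). The contrast was above 0 for H1f2 probe 1 (3.44) and probe 2 (3.62), genes of linker histone H1, and for H2bc4 probe 1 (4.77). Among H2A probes it was -6.92 for H2ac11, -6.47 for H2ac7 probe 2 and -5.76 for its probe 1, -6.15 and -6.44 for H2ac12 probes 1 and 2, and -5.9 for H2ac15. It was -5.86 and -3.53 for H2ac13 probes 1 and 2, -5.83 and -3.38 for H2ac10 probes 1 and 2, -5.76 for H2ac22, -5.31 for H2ac24, -4.33 for H2ac21 and -3.65 for H2ac20 probe 1. H2bc21 probe 2 was at -4.06. Among H3 and H4 probes it was -4.88 for H3c10 probe 2 and -2.93 for its probe 1, -4.33 for H3c1, -4.2 for H3c6, -3.57 and -3.49 for H3c7 probes 3 and 4, -2.84 for H3c13, -2.33 and -1.71 for H3c14 probes 2 and 3, and -2.56 for H4c12 probe 1.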

How the results depend on the processing

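Of the recomputed counts of called members, 100 stayed within 1.5 times the reported count and 13 did not. Those 13 concerned the 56 for osteosarcoma against bone marrow, which was 37 with the background level as a block, and the 4 for osteosarcoma against leiomyosarcoma. For the tumours, the count was 0 without background correction, 0 without the detection filter, 0 with the background block and 0 in a fit of the 2 groups alone (16, 16, 12 and 13 members had an unadjusted limma p under 0.05), 7 with a replicate block, and 0 to 10 when 1 tumour was left out. Over all alternatives the other counts ranged from 26 to 38 (36 reported) for leiomyosarcoma against muscle, 15 to 28 (20) for osteosarcoma against muscle, 48 to 67 (66) for leiomyosarcoma against bone marrow, 39 to 60 (52) for bone marrow against muscle and 38 to 55 (52) for the difference between tumour effects. No called member of the 6 comparisons between groups changed sign under any alternative run for it. Why these counts moved was not tested. Replicate numbers did not pair the samples (correlations of -0.09 to 0.10), and the replicate block gave 38, 56, 24, 65 and 56 calls for leiomyosarcoma against muscle, osteosarcoma against bone marrow, osteosarcoma against muscle, leiomyosarcoma against bone marrow and bone marrow against muscle. A random block for the shared animal code was not run, since 1 shared code could not give a correlation.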
